A study of Homo sapiens with 48 samples.

Results

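The genes described here are 10 members of the immediate early and AU-rich short-lived class: JUN, JUNB, JUND, EGR1, IER2, IER5, BTG1, BTG2, KLF10 and ZFP36L1. They were taken by name from the gene name column of the deposited count files, where all 10 were found among 19923 protein-coding genes. Poly(A) RNA had been sequenced from Kelly and NGP, established human neuroblastoma lines that carry the wild-type genotype and MYCN amplification per the labels. Cells of each line were kept for 3 or 6 days in DMSO or in 8 µM STM2457, which inhibits METTL3, the catalytic subunit of the m6A writer. Transcription was then stopped with actinomycin D (10 µg/ml), and cells were taken after 0, 3 or 6 h, so that RNA already made could be followed as it was lost. Line, treatment, duration and actinomycin D time together made 24 groups of 2 libraries. Every group, the DMSO controls included, had been through the same actinomycin D dose except those at 0 h. The labels do not say whether the 2 libraries of a group came from separate cultures, so the p-values measure only the spread between these libraries, which may be technical.

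Immediate early genes are switched on within minutes of a signal without new protein synthesis, and their mRNAs are among the shortest-lived of the cell. Many carry AU-rich elements, repeats around the pentamer AUUUA in the 3′ UTR, to which proteins of the ZFP36 family bind and recruit deadenylases. JUN, JUNB and JUND are the JUN subunits of the transcription factor AP-1, EGR1 and KLF10 are zinc finger transcription factors, and IER2 and IER5 are nuclear early response proteins. BTG1 and BTG2 are antiproliferative proteins that bind the CCR4-NOT deadenylase, and ZFP36L1 is itself an AU-rich element binding protein. The enzyme inhibited by STM2457 places m6A, a methyl mark on adenosine that is known to shorten the life of many mRNAs.

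The 3′ UTR sequences are shown because they carry the feature the class is named for. In GENCODE 44 canonical transcripts on GRCh38, the heptamer TATTTAT, which contains the pentamer ATTTA, was present on the sense strand in the 3′ UTR of 6 of the 10 members (60%) and in 31.97% of 18646 other counted genes with a 3′ UTR. Among genes whose 3′ UTR was within 20% of the member's own length, the share with the heptamer was 31.3% for JUN, 21.31% for JUND, 55.18% for IER5, 61.06% for BTG1, 44.81% for BTG2 and 39.91% for ZFP36L1. One heptamer with its neighbouring bases is given for each of the 6 genes, 5′ to 3′ on the mRNA strand, with the heptamer or its overlapping copies in capitals.
JUN, chr1:58780820-58780846, minus strand: tgcttatgaaTATTTATaacagcattc
JUND, chr19:18279999-18280025, minus strand: gattctgcccTATTTATgtttctactc
IER5, chr1:181092444-181092470, plus strand: tgtcttccttTATTTATTTATTTATtt
BTG1, chr12:92140771-92140797, minus strand: atagatttctTATTTATctgaaggtat
BTG2, chr1:203307529-203307555, plus strand: aatgaagagcTATTTATatatattatt
ZFP36L1, chr14:68788337-68788363, minus strand: tatcaaaacgTATTTATtgccaaacta
IER5 held 4 heptamers, of which the window shows 3 overlapping copies, and ZFP36L1 held 3. JUNB, EGR1 and KLF10 had the pentamer at 2, 1 and 3 places and no heptamer, and IER2 had neither. A match is a description of the letters and not evidence of a bound site.

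**Figure D1:**
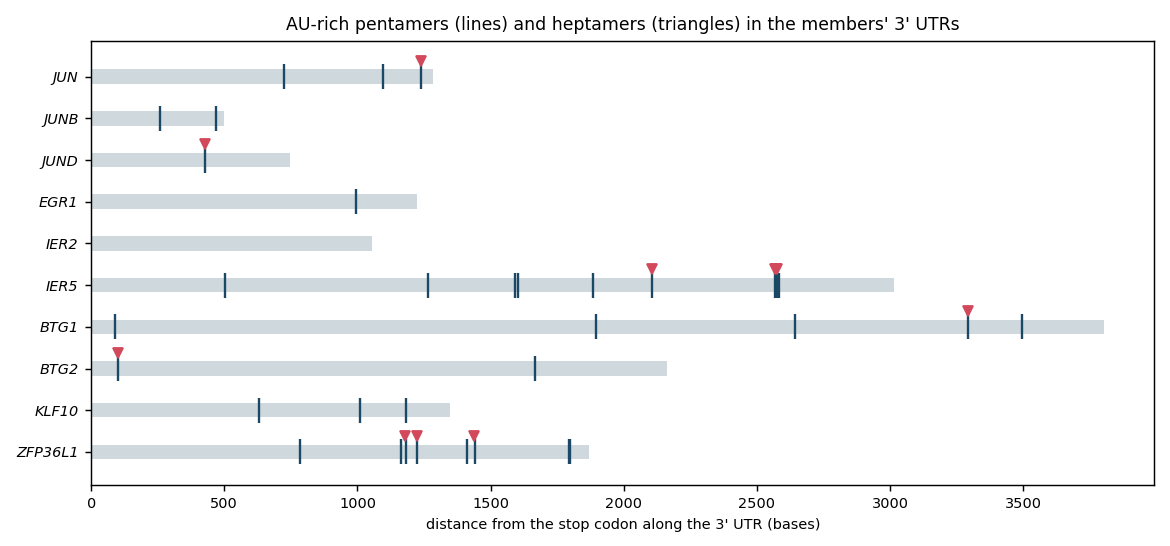
The 3′ UTR of each member drawn to scale from the stop codon (horizontal axis, bases), with pentamers as lines and heptamers as triangles. IER5 has 10 pentamers in 3014 bases, ZFP36L1 has 8 in 1871, JUND has 1 in 747 and IER2 has none in 1053.

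The members had few exons, with transcripts of usual length. JUN, JUNB, JUND and IER5 are single-exon genes, 40% of the 10 against 4.205% of the other genes, and the median number of exons was 2 against 8. The median transcript was 2966 bases against 2993, and the median 3′ UTR 1316 against 1083. Their density of the pentamer, with a median of 1.782 per kb of 3′ UTR against 1.545, was close to that of the other genes. The sequence GGACT, one form of the motif at which m6A is placed, had a median of 1.09 per kb of transcript in the members and 0.9234 per kb in the other genes. JUND carried it at 2 places, JUN and BTG1 at 5, IER5 and IER2 at 6, and EGR1 and KLF10 at none.

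Depth was 13807701 to 19774227 fragments in genes per Kelly library and 11139550 to 21942238 per NGP library. Markers of adrenergic neuroblastoma were at a median of at least 10 CPM (counts scaled to a common library total) for 10 of 10 genes in Kelly and 9 of 10 in NGP, the exception being TH, while 0 of 5 blood cell and 0 of 4 epithelial markers reached it. Of 6 fibroblast markers 2 reached it in Kelly, PDGFRB at a median of 66.4 CPM and COL1A1 at 14.3. In NGP 3 did, PDGFRA at 217.6, PDGFRB at 71.4 and COL1A1 at 55.9, while DCN had a median of 0 CPM in both lines. Of 6 mesenchymal neuroblastoma markers 3 reached it in each line. The share of ERCC spike-ins, synthetic RNAs added to the samples, was 0.265 to 0.382% of fragments at 0 h, 0.333 to 0.528% at 3 h and 0.374 to 0.671% at 6 h. CPM here is scaled by TMM, a method that assumes most genes do not change, so each value below is relative to the other mRNAs of the same library. With scaling to the spike-ins the median log2 change of all genes from 0 to 6 h in DMSO was -0.34 after 3 days and -1.18 after 6 days in Kelly, and -0.81 and -1.10 in NGP. Whether the spike-ins were added per cell or per amount of RNA is not given in the sources used here, so values scaled to them are not read as absolute amounts. In bulk samples fewer cells and less RNA per cell cannot be told apart.

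All 10 members passed the filter on low counts, but not with equal depth. EGR1 had 0 to 69 fragments per library in Kelly and 2 to 55 in NGP, and ZFP36L1 had 0 to 43 and 3 to 95. The precision for those 2 genes is low. The other 8 had 8 to 2273 fragments, the lowest being JUNB. Of the exon bases of JUNB, 14.2% overlap HOOK2. No strand option is recorded, and how fragments in that overlap were assigned was not examined. Per kilobase of exon, JUND had the highest level before actinomycin D in DMSO in both lines, at 53.3 ± 5.44 CPM per kb in Kelly and 45.8 ± 4.63 in NGP (SD, n = 4, both durations). In Kelly it was followed by JUN (18.9 ± 2.44), BTG2 (17.4 ± 2.47) and IER5 (17.1 ± 1.64), whose ranges overlap, then by KLF10, IER2, BTG1 and JUNB, where the range of KLF10 over both durations (5.11 to 13.5) covers or overlaps those of the 3 behind it. In NGP the next level was that of KLF10 (24.4 ± 9.26), whose range overlaps those of JUN, IER5 and IER2 behind it, and BTG1, BTG2 and JUNB, which overlap each other, followed. JUN also overlapped BTG1 there. EGR1 (0.728 ± 0.376 CPM per kb in Kelly, 0.505 ± 0.274 in NGP) and ZFP36L1 (0.139 ± 0.0927 and 0.364 ± 0.145) were the lowest in both lines and overlapped each other.

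Transcription block removed most of the mRNA of 8 members. From 0 to 6 h, JUN, JUNB, JUND, IER2, IER5, BTG1, BTG2 and KLF10 fell in each of the 8 combinations of line, treatment and duration, and EGR1 and ZFP36L1 passed the test in none. A call here is an adjusted p under 0.05 in edgeR's quasi-likelihood test, adjusted by Benjamini-Hochberg over all 16759 genes tested in Kelly or 14661 in NGP. In DMSO, 8 of 10 members were called lower in each of Kelly at 3 days, Kelly at 6 days, NGP at 3 days and NGP at 6 days, against 15.6%, 13.3%, 18.4% and 18.7% of all genes. In STM2457, 8 of 10 were called lower in the same order of groups, against 14.0%, 14.0%, 15.9% and 16.4%. The members' median log2 change over 6 h in DMSO was -2.50, -2.08, -2.54 and -1.91, beside a median between -0.05 and 0.05 for all genes.

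Most of that loss was already present at 3 h. From 0 to 3 h in DMSO, 8, 8, 8 and 7 of 10 members were called lower, against 9.37%, 7.90%, 11.3% and 9.89% of all genes. In STM2457 the counts were 7, 8, 7 and 7, against 9.28%, 7.95%, 9.86% and 8.73%. No member was called higher from 0 to 3 h or from 0 to 6 h by edgeR, DESeq2 or limma-voom, and none was higher at an unadjusted p under 0.05. Of all genes, 10.6%, 10.3%, 12.8% and 11.5% were called higher over 3 h in DMSO and 8.53%, 8.88%, 10.6% and 10.0% in STM2457. Over 6 h the shares called higher were 14.4%, 13.2%, 19.0% and 18% in DMSO and 12.8%, 12.4%, 16.6% and 15.7% in STM2457. For the 7 genes that fell other than JUND, the first 3 h held 56.7 to 137% of the log2 change over 6 h in DMSO and 65.8 to 141% in STM2457, a value over 100 meaning that the 6 h level lay above the 3 h level.

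**Figure D2:**
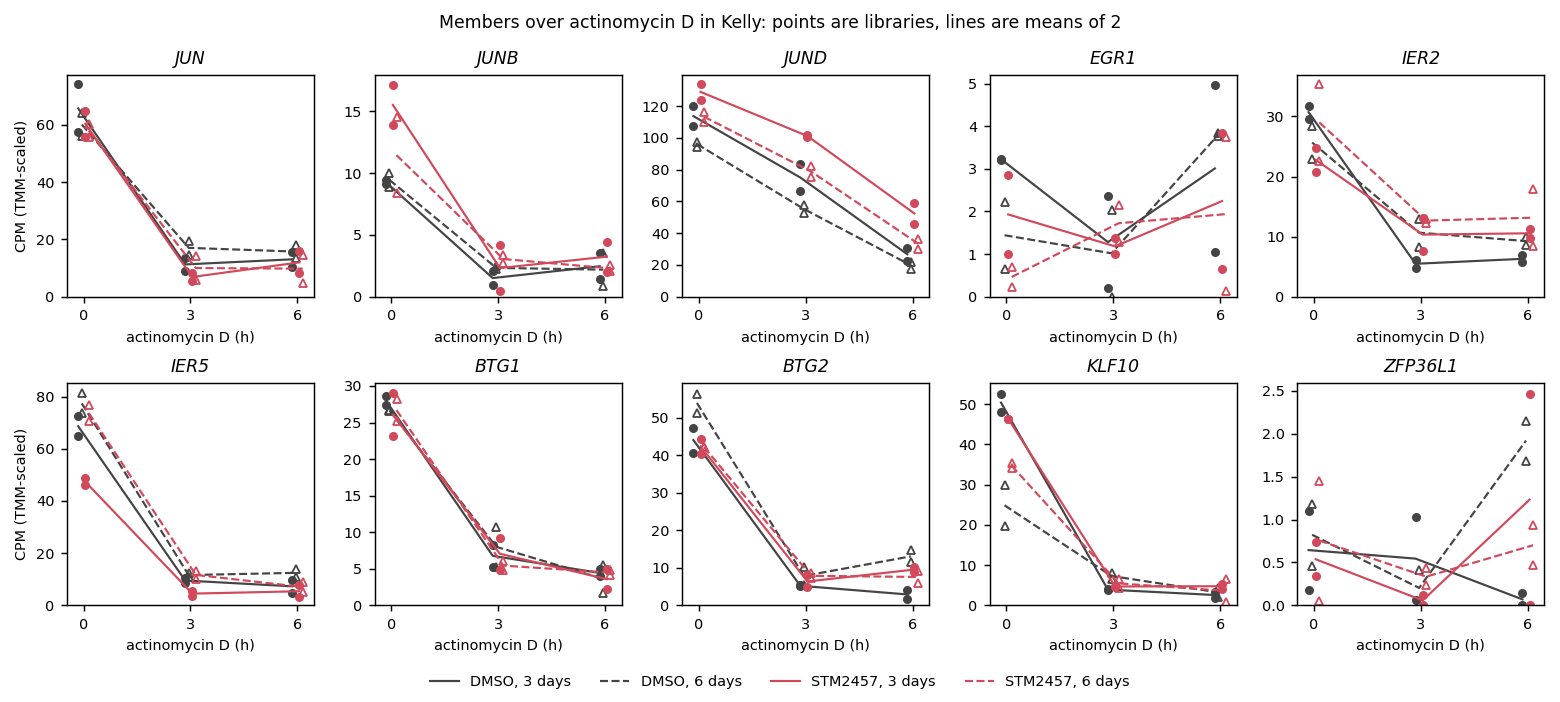
CPM of the 10 members in Kelly (vertical axes, from 0) against hours of actinomycin D (horizontal axes), in DMSO (grey) and STM2457 (red) after 3 days (filled circles, solid lines) or 6 days (open triangles, dashed lines). Points are libraries and lines join means of 2. All curves except those of JUND, EGR1 and ZFP36L1 drop by 3 h and stay low.

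**Figure D3:**
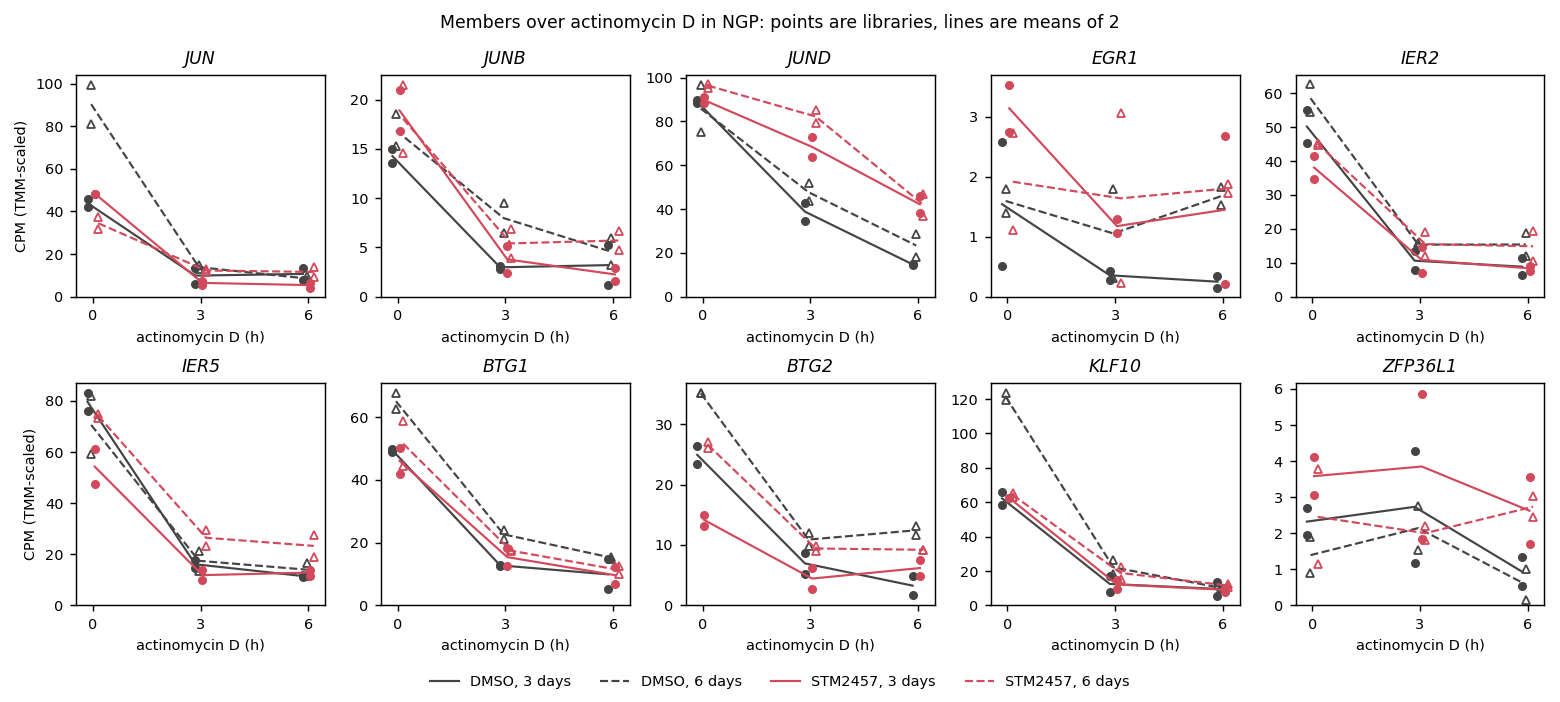
The same plot for NGP. JUN and KLF10 start higher at 6 days in DMSO than in the other 3 groups, and the STM2457 curves of JUND lie above the DMSO curves at 3 and 6 h.

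Among the AP-1 genes, JUN and JUND followed different courses. JUN, the founding AP-1 subunit, had 74.1 and 57.4 CPM in the 2 Kelly libraries at 3 days in DMSO at 0 h, 13.6 and 8.94 at 3 h, and 15.6 and 10.5 at 6 h. In NGP at 3 days in DMSO it had 42.0 and 45.9 CPM at 0 h, 13.7 and 6.14 at 3 h, and 8.04 and 13.3 at 6 h. The libraries at 3 and 6 h overlapped each other in both cases, and both times lay below 0 h without overlap. Its log2 change from 0 to 3 h in DMSO was -2.55 ± 0.28 (Kelly, 3 days), -1.82 ± 0.27 (Kelly, 6 days), -2.14 ± 0.26 (NGP, 3 days) and -2.70 ± 0.26 (NGP, 6 days), with adjusted p in edgeR between 5.76e-14 and 7.89e-09. Of the starting mean, 15.4 to 28.4% was left at 3 h and 9.46 to 26.2% at 6 h.

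JUND, the JUN subunit with the most constant expression in many tissues, was lost more slowly at first and went on falling. In Kelly at 3 days in DMSO it had 108 and 120 CPM at 0 h, 83.6 and 66.4 at 3 h, and 30.9 and 22.6 at 6 h. In NGP at 3 days in DMSO the values were 89.6 and 88.4, then 34.8 and 42.9, then 14.5 and 15. The 3 times did not overlap in either case, nor in any of the other 6 combinations. The log2 change in DMSO from 0 to 3 h was -0.60 ± 0.15, -0.80 ± 0.15, -1.20 ± 0.16 and -0.84 ± 0.16, and from 3 to 6 h it was -1.49 ± 0.16, -1.48 ± 0.16, -1.39 ± 0.17 and -1.04 ± 0.17, all with adjusted p in edgeR of at most 0.000746. The call from 0 to 3 h in Kelly at 3 days was lost without replicate 2 of its 3 h pair, where the change was -0.44. The first 3 h held 28.7 to 46.3% of the log2 loss over 6 h in DMSO.

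JUNB, the third JUN gene, had 9.46 and 9.10 CPM in Kelly at 3 days in DMSO at 0 h, 0.961 and 2.05 at 3 h, and 3.53 and 1.41 at 6 h. In NGP at 6 days in DMSO it had 15.2 and 18.5, then 9.48 and 6.46, then 3.17 and 5.94. Its level at 3 and 6 h lay below that at 0 h without overlap in all 8 combinations, while 3 and 6 h overlapped in 6 of them. Its log2 change over 6 h in DMSO was -1.91, -2.11, -2.18 and -1.90, with SE of 0.64, 0.65, 0.46 and 0.44. Its calls in Kelly DMSO rest on few fragments: that over 6 h at 3 days was lost without replicate 1 of the 0 h pair (-1.88) or replicate 2 of the 6 h pair (-1.39), and that at 6 days without replicate 1 of the 6 h pair (-1.43). From 0 to 3 h the call was lost at 3 days without replicate 1 of the 3 h pair (-2.17) and at 6 days without replicate 2 of the 0 h pair (-1.94) or either 3 h library (-1.95 and -2.09). In STM2457 the JUNB call was lost in Kelly at 3 days without replicate 2 of the 3 h pair (-1.90 over 3 h) or of the 6 h pair (-1.80 over 6 h). It was also lost in Kelly at 6 days without replicate 1 of the 0 h pair (-1.45 and -1.86) or either 3 h library (-2.06 and -1.78), and in NGP at 6 days without replicate 1 of the 3 h pair (-1.40).

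The early response genes IER2 and IER5 fell within 3 h, and with TMM scaling and all libraries no further change of either was called from 3 to 6 h. IER5 had 64.8 and 72.4 CPM in Kelly at 3 days in DMSO at 0 h, 8.58 and 10.5 at 3 h, and 9.93 and 4.71 at 6 h. In NGP at 3 days in DMSO it had 83.2 and 76.0, then 17.7 and 14.5, then 11.8 and 11.2. IER5 had 13.9 to 24.7% left at 3 h in DMSO and 10.7 to 19.8% at 6 h. IER2 had 31.8 and 29.6 CPM in Kelly at 3 days in DMSO at 0 h, 6.18 and 4.77 at 3 h, and 6.91 and 5.69 at 6 h. It had 17.8 to 41.5% left at 3 h and 17.6 to 36.1% at 6 h in DMSO. These shares of the mean were above those of IER5 in each of the 4 groups at both times, least so in NGP at 3 days at 3 h (21.2 against 20.2%). With spike-in scaling IER5 had 9.26 to 18.1% left at 3 h in DMSO and 6.64 to 9.58% at 6 h. IER2 had 11.9 to 25.9% and 10.1 to 15.2% with that scaling, though in Kelly at 3 days its share rose from 11.9 to 15.2%. The log2 change of IER2 over 6 h in DMSO was -2.28, -1.47, -2.52 and -1.92. Its call from 0 to 3 h in Kelly at 6 days was lost without replicate 1 of the 0 h pair (-1.12) or replicate 2 of the 3 h pair (-0.98). In Kelly STM2457 at 3 days it was lost without replicate 1 of the 0 h pair (-1.01 over 3 h, -0.98 over 6 h), replicate 2 of the 3 h pair (-0.80) or replicate 2 of the 6 h pair (-1.01). At 6 days in Kelly STM2457 it was lost without replicate 2 of the 0 h pair (-0.82 and -0.77), replicate 1 of the 3 h pair (-1.16) or replicate 2 of the 6 h pair (-0.70).

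BTG1 and BTG2, the antiproliferative pair, both fell, and BTG2 differed between durations. BTG1 had 27.4 and 28.7 CPM in Kelly at 3 days in DMSO at 0 h, 5.29 and 8.27 at 3 h, and 3.96 and 4.92 at 6 h, with 13.7 to 23.4% left at 6 h over the 4 DMSO series. Its call from 0 to 3 h in Kelly DMSO at 6 days was lost without replicate 1 of the 3 h pair (-1.31). BTG2 had 47.3 and 40.7 CPM in Kelly at 3 days in DMSO at 0 h, 5.08 and 5.37 at 3 h, and 4.10 and 1.76 at 6 h. At 6 days the values were 51.3 and 56.4, then 5.57 and 10.1, then 14.7 and 11.5. In CPM the 6 h libraries thus lay below the 3 h libraries at 3 days and above them at 6 days. With spike-in scaling they again lay below at 3 days, but the 3 h and 6 h libraries overlapped at 6 days. At 6 days in Kelly DMSO with that scaling, BTG2 had 9.12% of its 0 h mean left at 3 h and 9.979% at 6 h. In CPM it had 14.58% and 24.25%. Its log2 change over 6 h in Kelly DMSO was -3.91 ± 0.34 at 3 days and -2.04 ± 0.30 at 6 days, and in NGP DMSO -2.90 ± 0.36 and -1.5 ± 0.33. The difference, 6 days minus 3 days, was 1.86 ± 0.44 in Kelly (adjusted p = 0.00917 in edgeR) and 1.40 ± 0.47 in NGP (adjusted p = 0.111 in edgeR). In Kelly DMSO the difference was 1.02 with spike-in scaling, and the call was lost with limma-voom (1.98) and without replicate 1 of the 3-day 0 h pair (1.76), replicate 2 of the 3-day 6 h pair (1.38), replicate 1 of the 6-day 0 h pair (1.81) or replicate 1 of the 6-day 6 h pair (1.68). In NGP DMSO it passed without replicate 1 of the 3-day 6 h pair (2.38). In NGP STM2457 at 3 days the 6 h call was lost without replicate 2 of the 6 h pair (-0.91).

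KLF10, a TGF-beta-inducible zinc finger factor, had the largest log2 loss over 6 h in DMSO of the 8 genes in each group except NGP at 3 days, where BTG2 and IER5 lost more. In Kelly at 3 days in DMSO it had 52.6 and 48.2 CPM at 0 h, 4.05 and 3.80 at 3 h, and 1.94 and 3.23 at 6 h. In NGP at 6 days in DMSO it had 123 and 120, then 26.2 and 18.1, then 10.9 and 9.49. No 2 times overlapped in either case. Over the 4 DMSO series 7.79 to 29.4% was left at 3 h and 5.14 to 15.4% at 6 h, and the log2 change over 6 h was -4.28 ± 0.41, -2.94 ± 0.39, -2.67 ± 0.25 and -3.57 ± 0.25.

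EGR1, the growth factor-inducible zinc finger gene, and ZFP36L1 gave no measurable decay at this depth. EGR1 ranged from 0 to 4.97 CPM over the 48 libraries and ZFP36L1 from 0 to 5.87. In Kelly at 6 days in DMSO, EGR1 had 2.23 and 0.659 CPM at 0 h, 2.04 and 0 at 3 h, and 3.77 and 3.84 at 6 h. In NGP at 3 days in DMSO it had 2.57 and 0.510, then 0.433 and 0.279, then 0.347 and 0.152, where the log2 change over 6 h was -2.56 ± 1.33 (adjusted p = 0.129 in edgeR). ZFP36L1 in NGP at 6 days in DMSO had 1.90 and 0.890, then 2.75 and 1.53, then 0.144 and 1.01. For these 2 genes the pairs often differed by more than the times did, and the SE of the log2 change was 0.87 to 2.48 over 3 or 6 h.

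A rebound, a level higher at 6 h than at 3 h, was not called for any member. Of 40 tests in DMSO, 0 were called higher by edgeR, DESeq2 or limma-voom and 1 was higher at an unadjusted p under 0.05, and of 40 in STM2457 again 0 were called and 1 was at an unadjusted p under 0.05. All genes were called higher from 3 to 6 h at 2.16%, 1.18%, 4.06% and 6.10% in DMSO and 2.00%, 1.11%, 3.29% and 2.84% in STM2457. The DMSO value was BTG2 in Kelly at 6 days (0.73 ± 0.31, adjusted p = 0.208 in edgeR), and the STM2457 value was JUN in Kelly at 3 days (0.80 ± 0.28, adjusted p = 0.0831 in edgeR). JUN there had 8.34 and 5.42 CPM at 3 h and 15.8 and 8.14 at 6 h, which overlap, and it passed the test with the replicate number as a block, without replicate 1 of the 3 h pair (1.15) or without replicate 2 of the 6 h pair (1.19). EGR1 in Kelly DMSO at 6 days passed without replicate 1 of the 3 h pair (8.96), where the lone 3 h library had 0 fragments, so this value depends on the prior count and is no bound. In CPM, the 2 libraries at 6 h lay above both at 3 h in 2 of 8 combinations for BTG2, 1 for EGR1 and 3 for ZFP36L1, and in none for the other 7. They lay below both at 3 h in 2 for BTG2, 0 for EGR1 and 1 for ZFP36L1. The share of all genes with such a separation was not computed, so these counts are not read as a rebound.

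The late phase was instead one of further loss for JUND. From 3 to 6 h in DMSO, 1, 1, 1 and 2 of 10 members were called lower, against 4.67%, 3.33%, 4.55% and 7.80% of all genes, and in STM2457 1 of 10 in each, against 3.29%, 3.53%, 3.86% and 4.83%. JUND was the member called in all 8 combinations, and KLF10 in NGP DMSO at 6 days was the other call (-1.12 ± 0.25, adjusted p = 0.000431 in edgeR). In STM2457, the late log2 change of JUND was -0.95, -1.24, -0.70 and -0.98 with SE of 0.15, 0.15, 0.16 and 0.16, and the call in NGP at 3 days was lost without replicate 1 of its 6 h pair (-0.57). Over all 8 combinations 9 late losses were called, 5 in DMSO and 4 in STM2457, and with spike-in scaling 19 and 9 were. Under that scaling the median log2 change of all genes from 3 to 6 h in DMSO was 0.14, -0.56, -0.40 and -0.59. Without replicate 1 of the NGP DMSO 3-day 6 h pair, 8 late losses were called in DMSO, with BTG1 (-1.32), BTG2 (-2.0) and KLF10 (-1.14) added in that group. Without replicate 1 of the Kelly STM2457 6-day 6 h pair, 6 were called in STM2457, with IER5 (-1.19) and KLF10 (-2.89) added.

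**Figure D4:**
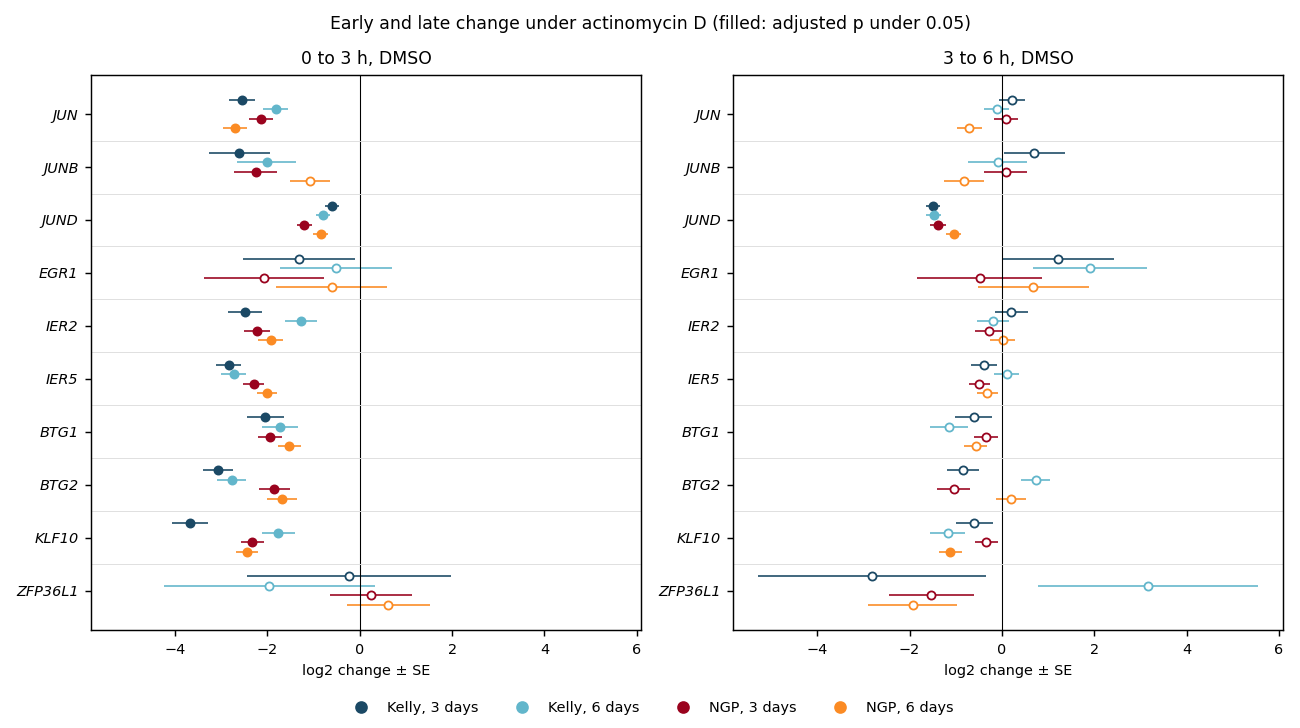
Log2 change ± SE of each member in DMSO from 0 to 3 h (left) and from 3 to 6 h (right), with 1 colour for each line and duration and filled points for adjusted p under 0.05. Called loss sits at the left for 7 genes and on both sides for JUND and for KLF10 in NGP at 6 days, and no filled point lies right of 0.

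STM2457 changed few members before actinomycin D. At 0 h, 0, 0, 0 and 2 of 10 members were called, against 1.68%, 3.97%, 3.70% and 7.99% of all genes in Kelly at 3 and 6 days and NGP at 3 and 6 days. The 2 were JUN and KLF10, both lower in NGP at 6 days. JUN had 81.2 and 99.5 CPM in DMSO and 31.6 and 37.4 in STM2457, and KLF10 had 123 and 120 against 63.2 and 65.3, with no overlap for either. The log2 difference, STM2457 minus DMSO, was -1.39 ± 0.25 for JUN (adjusted p = 1.86e-05 in edgeR) and -0.92 ± 0.23 for KLF10 (adjusted p = 0.00278 in edgeR, and 0.0805 in DESeq2). In NGP at 3 days the differences were 0.14 ± 0.25 and 0.01 ± 0.23. The difference between durations, 6 days minus 3 days, was -1.53 ± 0.35 for JUN (adjusted p = 0.00267 in edgeR) and -0.92 ± 0.32 for KLF10 (adjusted p = 0.127 in edgeR), with 1 of 10 members called in NGP against 2.80% of all genes and 0 of 10 in Kelly against 0.788%.

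The 6-day NGP controls from which both genes differed were themselves higher than the 3-day controls. In DMSO at 0 h, JUN had 42.0 and 45.9 CPM at 3 days and 81.2 and 99.5 at 6 days, and KLF10 had 66.2 and 58.4 and then 123 and 120. The 6-day STM2457 libraries of KLF10, at 63.2 and 65.3 CPM, lay within the range of the 3-day DMSO libraries, and those of JUN lay below theirs. The log2 difference between durations in DMSO was 1.04 ± 0.25 for JUN and 0.96 ± 0.23 for KLF10 in NGP (adjusted p = 0.00118 and 0.00101 in edgeR), the latter lost with DESeq2 at 0.94. In NGP 2 of 10 members were called higher against 5.37% of all genes and 0 lower against 6.72%, and in Kelly 0 were called higher against 2.78% and 1 lower against 5.74%. The gene lower in Kelly was KLF10, at -1.02 ± 0.35 (adjusted p = 0.0457 in edgeR), a call lost without any 1 of the 4 libraries (-0.93 and -1.06 without replicate 1 or 2 at 3 days, -1.33 and -0.73 without replicate 1 or 2 at 6 days). It was also lost with DESeq2, library size alone or spike-in scaling.

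**Figure D5:**
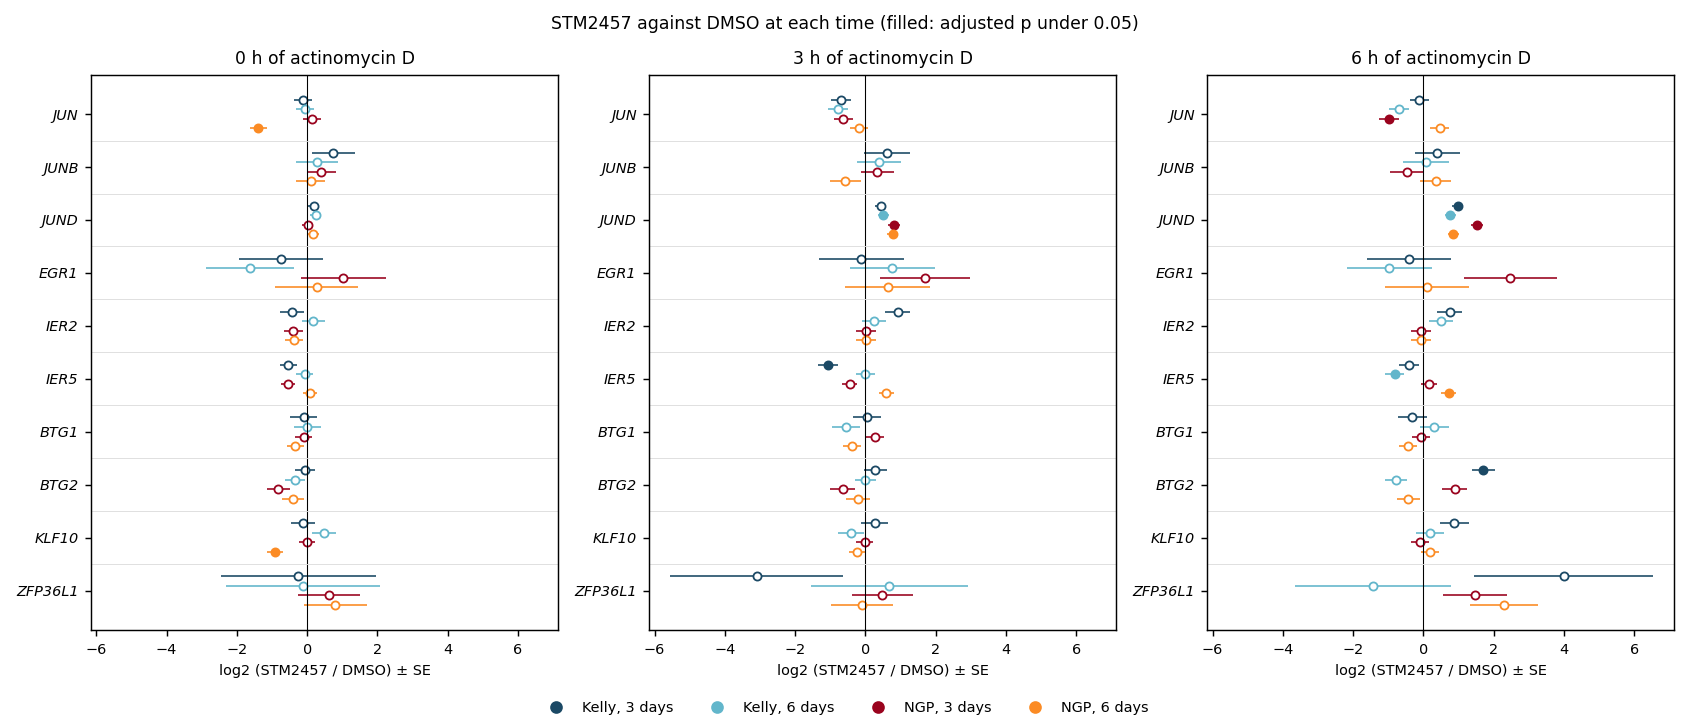
Log2 ratio ± SE of STM2457 to DMSO for each member at 0 h (left), 3 h (middle) and 6 h (right) of actinomycin D, with 1 colour for each line and duration and filled points for adjusted p under 0.05. JUND lies near 0 at 0 h, between 0.43 and 0.82 at 3 h and between 0.76 and 1.51 at 6 h.

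Under actinomycin D the member that differed most steadily with STM2457 was JUND, in a comparison at 3 and 6 h that was added after the data had been seen. At 3 h, 1, 1, 1 and 1 of 10 members were called, against 5.83%, 5.20%, 7.93% and 8.64% of all genes, and at 6 h 2, 2, 2 and 2, against 7.81%, 9.89%, 11.6% and 9.16%. At 0 h its differences were 0.18 ± 0.15, 0.24 ± 0.15, 0.01 ± 0.16 and 0.17 ± 0.16, with none called. At 6 h it had 30.9 and 22.6 CPM in DMSO and 45.8 and 58.9 in STM2457 in Kelly at 3 days, and 22.1 and 17.5 against 36.6 and 30.3 at 6 days. In NGP it had 14.5 and 15 against 38.3 and 46.1 at 3 days, and 17.9 and 28.8 against 36.9 and 47.1 at 6 days. The STM2457 libraries lay above the DMSO libraries in all 4 pairs of groups at 3 h and in all 4 at 6 h, which are different libraries. At 0 h they did so in both Kelly pairs and overlapped in both NGP pairs. The share of all genes with such a separation was not computed.

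The log2 difference of JUND at 6 h was 0.97 ± 0.16, 0.76 ± 0.16, 1.51 ± 0.17 and 0.85 ± 0.17, each called (adjusted p between 1.94e-10 and 0.000139 in edgeR). Over all genes tested in both lines, 89 of 14314 (0.622%) were called higher in STM2457 in all 4 comparisons at 6 h, JUND among them. At 3 h 34 genes (0.238%) were, and JUND was not among them. The differences of JUND at 3 h were 0.43 ± 0.15, 0.51 ± 0.15, 0.82 ± 0.16 and 0.78 ± 0.16, with adjusted p of 0.0596, 0.0176, 0.000173 and 0.000202 in edgeR. In Kelly at 6 days the 3 h call was lost without any 1 of its 4 libraries (0.44 to 0.59). The 3 h difference in Kelly at 3 days was called with spike-in scaling (0.85), limma-voom (0.45) and without replicate 1 of the DMSO pair (0.61). At 6 h the call in Kelly at 6 days was lost with limma-voom (0.76, adjusted p = 0.0621) and that in NGP at 6 days without replicate 1 of the DMSO pair (0.54). With spike-in scaling the 6 h differences were 0.96, 1.2, 1.76 and 1.24, and the difference at 0 h in Kelly at 3 days also passed, at 0.58.

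As a share of its own starting level, JUND had 43.6 to 66.0% left at 3 h in DMSO and 69.6 to 85.4% in STM2457. Its loss from 0 to 3 h in STM2457 was called only in Kelly at 6 days (-0.52). That call was lost without replicate 2 of the 0 h pair or replicate 1 of the 3 h pair. At 6 h JUND had 16.6 to 27.2% left in DMSO and 29.5 to 47.0% in STM2457. The 4 DMSO values and the 4 STM2457 values did not overlap at either time. Both times are set against the same 0 h libraries, and the share of all genes with such a separation was not computed. The difference between the 0 to 6 h changes, STM2457 minus DMSO and called the decay difference here, was 0.79 ± 0.21, 0.52 ± 0.22, 1.5 ± 0.23 and 0.69 ± 0.23 for JUND, and only that in NGP at 3 days passed the test (adjusted p = 2.68e-05 in edgeR; the other 3 had 0.0975, 0.446 and 0.105). In Kelly at 3 days it passed without replicate 1 of either 6 h pair (1.03 for DMSO, 0.96 for STM2457), and in NGP at 6 days without replicate 1 of the DMSO 0 h pair (0.86), replicate 2 of the DMSO 6 h pair (1.06) or replicate 1 of the STM2457 6 h pair (0.86). Spike-in scaling gave 0.38, 1.22, 1.65 and 1.11, with the last 3 called.

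Other decay differences were scattered over lines and durations. Over 0 to 6 h, 1, 0, 1 and 1 of 10 members were called, each as a smaller loss in STM2457, against 0.221%, 0.424%, 0.703% and 2.54% of all genes. Besides JUND these were BTG2 in Kelly at 3 days (1.76 ± 0.44, adjusted p = 0.0469 in edgeR) and JUN in NGP at 6 days (1.85 ± 0.37, adjusted p = 0.000398 in edgeR). For JUN the 2 treatments differed at the start and not at the end: at 6 h it had 7.60 and 9.49 CPM in DMSO and 14.1 and 9.10 in STM2457, which overlap. For BTG2 they overlapped at 0 h (47.3 and 40.7 against 40.4 and 44.3 CPM) and not at 6 h (4.10 and 1.76 against 10.3 and 8.79). The BTG2 call was lost with limma-voom, with a fit on the 3-day libraries alone, and without replicate 1 or 2 of the DMSO 0 h pair (1.65 and 1.87), replicate 2 of the DMSO 6 h pair (1.27), replicate 1 or 2 of the STM2457 0 h pair (1.70 and 1.83) or replicate 1 of the STM2457 6 h pair (1.64). BTG2 in NGP at 3 days (1.71 ± 0.48, adjusted p = 0.0846 in edgeR) missed the test, and passed without replicate 1 of the DMSO 6 h pair (2.64) or replicate 2 of the STM2457 6 h pair (1.98). KLF10 in NGP at 6 days (1.10 ± 0.34, adjusted p = 0.0647 in edgeR) also missed it, and passed without replicate 2 of either 0 h pair (1.12 for DMSO, 1.13 for STM2457), DMSO replicate 1 at 6 h (1.21) or STM2457 replicate 2 at 6 h (1.19).

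Split by phase, no member's decay difference was called. Over 0 to 3 h, 0 of 40 tests passed in edgeR, DESeq2 or limma-voom, with 5 higher and 1 lower at an unadjusted p under 0.05, against 0.0955%, 0.0358%, 0.0205% and 0.0750% of all genes. Over 3 to 6 h, 0 of 40 passed in the same tools, with 5 higher and 1 lower at an unadjusted p under 0.05, against 0.0895%, 0.0895%, 0.0887% and 1.43%. BTG2 in NGP at 3 days (1.53 ± 0.50, adjusted p = 0.354 in edgeR) passed without replicate 1 of the DMSO 6 h pair (2.46) or replicate 2 of the STM2457 3 h pair (2.24).

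Besides JUND, the added comparisons of STM2457 with DMSO called IER5, BTG2 and JUN. IER5 was lower in STM2457 in Kelly at 3 days at 3 h (-1.07 ± 0.28) and at 6 days at 6 h (-0.82 ± 0.28), and higher in NGP at 6 days at 6 h (0.72 ± 0.22). IER5 therefore had no common direction. The first call was also lost with spike-in scaling (-0.64) and the second with DESeq2 and with spike-in scaling (-0.38). Each of the 3 was lost with limma-voom and without 2 of 4 libraries: replicate 2 of either pair in the first (-0.92 for DMSO, -0.83 for STM2457), DMSO replicate 1 or STM2457 replicate 2 in the second (-0.63 and -0.48), and replicate 2 of either pair in the third (0.48 and 0.43). BTG2 was higher in Kelly at 3 days at 6 h (1.71 ± 0.34, adjusted p = 6.38e-05 in edgeR), a call lost with limma-voom (adjusted p = 0.082). Its mean at 6 h was also higher in STM2457 in NGP at 3 days (6.18 against 3.28 CPM in DMSO). At 6 days it was lower in Kelly (7.58 against 13.1 CPM) and in NGP (9.21 against 12.4), and none of these differences was called. JUN was lower in NGP at 3 days at 6 h (-0.97 ± 0.28, adjusted p = 0.0113 in edgeR). The JUN call was lost with spike-in scaling (-0.72), with limma-voom, and without DMSO replicate 2 (-0.58) or STM2457 replicate 1 (-0.68).

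Differences between the lines were called for few members. In a joint fit of 17343 genes, 1 of 10 members was called higher in NGP DMSO cells at 0 h at 3 days and 3 at 6 days, against 14.0% and 15.7% of all genes, and 0 lower, against 16.0% and 15.9%. BTG1 was higher by 0.86 ± 0.34 and 1.33 ± 0.34 on the log2 scale, and at 6 days IER2 was higher by 1.23 ± 0.33 and KLF10 by 2.33 ± 0.35. BTG1 in DMSO at 0 h and 6 days had 26.7 and 26.6 CPM in Kelly and 67.6 and 62.4 in NGP, each line scaled alone. With the lines scaled together, BTG1 at 0 h in DMSO had 5.41 to 5.75 CPM per kb in Kelly. In NGP it had 10.2 to 14.2 (both durations), with no overlap. For the 0 to 6 h change in DMSO, 0 of 20 tests between lines were called by edgeR, DESeq2 or limma-voom (3 at an unadjusted p under 0.05), against 1.59% and 4.25% of all genes. For the STM2457 effect at 0 h, 0 of 20 were called by edgeR or DESeq2 and 2 by limma-voom (2 at an unadjusted p under 0.05), against 0.161% and 1.75%. The 0 to 6 h change in DMSO differed between durations for 1 of 10 members in each line, BTG2 in Kelly and JUN in NGP (-1.36 ± 0.37, adjusted p = 0.0207 in edgeR), against 0.638% and 2.54% of all genes. The JUN call was lost with limma-voom and without replicate 1 of the 3-day 0 h pair (-1.30), replicate 2 of the 3-day 6 h pair (-0.96), replicate 2 of the 6-day 0 h pair (-1.21) or replicate 1 of the 6-day 6 h pair (-1.20).

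Many other immediate early genes fell too. Of a list of 36 such genes, 32 were tested in Kelly and 29 in NGP, and 14, 17, 19 and 19 were called lower over 6 h in DMSO with 0 called higher, at list medians of -2.16, -1.88, -2.37 and -2.09. Of all genes, 15.6%, 13.3%, 18.4% and 18.7% were called lower in these 4 comparisons and 14.4%, 13.2%, 19.0% and 18% higher, which is also the background for the list counts that follow. TRIB1, a pseudokinase, changed by -4.54, -3.77, -3.70 and -4.02 on the log2 scale, and DUSP6, an ERK phosphatase, by -5.61, -3.18, -4.65 and -3.80. Of 9 partners of JUN in AP-1, 2, 2, 3 and 3 were called lower and 0, 0, 1 and 1 higher, counts near that background, with ATF3 and FOSL2 lower in all 4. FOSL2 changed by -2.20, -1.86, -2.62 and -1.27, and ATF3, a stress-induced partner, by -2.04, -2.0, -3.70 and -4.54.

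Genes for proteins that act on AU-rich mRNAs were called in both directions. Of 10 AU-rich element binding proteins, 4, 3, 7 and 4 were called higher and 1, 1, 1 and 2 lower over 6 h in DMSO, at list medians of 0.16, 0.08, 0.45 and 0.17. KHSRP, which promotes decay of such mRNAs, was higher by 0.70, 0.73, 0.51 and 0.50, and ZFP36L2, a relative of ZFP36L1, changed by -2.65, -2.37, -2.54 and -1.28. Of the BTG and TOB family with its deadenylases, 3, 2, 2 and 3 genes of 9 tested in Kelly and 8 in NGP were called lower and 1, 1, 2 and 0 higher. TOB1 and TOB2, relatives of BTG1 and BTG2, fell in all 4, with values for TOB1 of -3.19, -2.37, -1.91 and -1.48. Of 7 factors that switch on immediate early genes, 2, 3, 2 and 2 were called lower and 0, 1, 1 and 2 higher, among them the SRF coactivator MRTFA in all 4 (-1.73, -1.53, -1.57 and -1.20).

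For STM2457 at 0 h the list counts are set against the 1.68%, 3.97%, 3.70% and 7.99% of all genes called. In NGP at 6 days 2 of 29 other immediate early genes were called lower, GADD45A (-0.87 ± 0.28) and NR4A3 (-1.46 ± 0.45), and 0 were called in the other 3 comparisons, counts near that background. Of the AP-1 partners 2 of 9 were called lower in NGP at 6 days, ATF3 (-2.83 ± 0.45) and JDP2 (-1.80 ± 0.46), and 0 in the other 3. JUN and 2 of its partners were thus lower in the same libraries, against the same DMSO controls. In those controls JUN had 81.2 and 99.5 CPM, against 42.0 and 45.9 in the 3-day controls. Whether ATF3 and JDP2 also differed between the controls is not given here. ATF3 had a called decay difference in NGP at 6 days (3.26 ± 0.65, adjusted p = 0.000443 in edgeR). That value is computed from the same 0 h libraries, in which ATF3 was already lower with STM2457, so it is not a separate result. ELAVL4, a neuronal stabiliser of AU-rich mRNAs, was higher in STM2457 in Kelly (0.95 ± 0.19) and NGP (0.31 ± 0.09) at 6 days, and CNOT1, the scaffold of CCR4-NOT, was lower in NGP at 6 days (-0.32 ± 0.06). The counts called in the lists of ELAVL4 and CNOT1 are not given here, so neither gene is read against that background.

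The genes whose course was most like the mean of the 10 members over the 24 group means, each centred within its line, were H4C5 (Pearson r = 0.988), H1-3 (0.984), MYCN (0.982), H3C2 (0.980) and H1-2 (0.977), among 8458 genes of at least 10 CPM in both lines. They comprise 4 histone genes and the amplified transcription factor gene MYCN. The points share libraries, and the value is a description.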

How the data were processed

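Poly(A) RNA had been taken up in TRIzol, selected on beads and made into cDNA libraries with a SMART kit, per the labels' protocols. The authors deposited unnormalized counts of fragments for each gene, made with featureCounts from Subread 1.5.3 on paired-end alignments, by gene name at exon level, against protein-coding GENCODE genes and ERCC spike-ins, per the file headers. Trimmomatic 0.36, HISAT2 2.1.0 and GRCh38 are named in the submitters' processing notes. No strand option is recorded.

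Counts were tested with edgeR 4.0.16 (R 4.3.3), with TMM scaling, filterByExpr (minimum count 10, minimum total 15), the quasi-likelihood test and Benjamini-Hochberg adjustment over all genes. Each line was fitted alone with 24 libraries, and differences between lines in 48. SEs are the absolute log2 change over the square root of F. The fits were tested on simulated counts only for STM2457 against DMSO at 0 h after 3 days in each line. Changes under actinomycin D and differences between effects were not simulated. Depth limits precision most for EGR1 and ZFP36L1. Every member is named, with at most 2 genes of each other list and kind of comparison and the 5 genes of most similar course. The members and lists were chosen with earlier results of these data known. The alternatives were DESeq2 1.42.0, limma-voom (limma 3.58.1), RLE, library size and ERCC scaling, no filter, a fit by duration, the replicate number as a block and leaving out each library. Groups came from the sample titles. Sequences were read from GRCh38 with GENCODE 44; none was printed for KLF10.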

Additional observations from a re-analysis of the deposited data

Results flagged for a closer look

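Each result below was flagged because a test of the difference between 2 effects passed an adjusted p under 0.05 in edgeR. The change of BTG2 over 6 h of actinomycin D in DMSO was 1.865 log2 units smaller in loss after 6 than after 3 days in Kelly. The change of JUN over 6 h in DMSO differed by -1.358 between 6 and 3 days in NGP, a larger loss at 6 days. The decay difference between STM2457 and DMSO was 1.762 for BTG2 in Kelly at 3 days, 1.503 for JUND in NGP at 3 days and 1.853 for JUN in NGP at 6 days, each a smaller loss with STM2457. The effect of STM2457 on JUN at 0 h differed by -1.53 between 6 and 3 days in NGP. The 3 JUN results share the 6-day NGP DMSO libraries at 0 h, which had 81.2 and 99.5 CPM, and both BTG2 results share the 3-day Kelly DMSO libraries at 6 h, which had 4.10 and 1.76 CPM.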

How the results depend on the processing

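The counts of members lower from 0 to 3 h and from 0 to 6 h stayed within 1.5 times the reported ones under all 8 other settings and without any 1 library: 29 to 32 in DMSO and 26 to 32 in STM2457 over 3 h, 31 to 34 and 30 to 32 over 6 h. The 34 came with spike-in scaling, where the calls beyond 32 were of EGR1 or ZFP36L1. RLE size factors changed no call of a member. Spike-in scaling gave 19 late losses in DMSO and 9 in STM2457, 1 member higher with STM2457 at 0 h, 6 higher and 0 lower at 3 h, and 10 higher and 0 lower at 6 h. For decay differences it gave 1 over 0 to 3 h, 8 over 0 to 6 h and 2 over 3 to 6 h. Between durations it gave 3 larger losses in DMSO, 0 lower DMSO levels and 3 lower STM2457 effects, with JUND in Kelly reversed at -0.60, and between lines 1 larger loss. This scaling moves all genes of a library by the same factor. With limma-voom, 0 changes in loss between durations were called in either direction, 7 DMSO levels were higher and 3 lower in NGP than in Kelly, and 0 members were lower with STM2457 at 3 or 6 h. It also gave 3 higher at 6 h, 2 lower STM2457 effects between durations and 2 between lines. DESeq2 gave 1 member lower with STM2457 at 0 h and 1 at 6 h, 5 decay differences over 0 to 6 h, and between durations 1 higher and 0 lower DMSO level. Library size alone gave 8 late losses in DMSO and 0 lower DMSO levels between durations. Without the filter 8 late losses were called in DMSO, 2 smaller losses between durations, 1 smaller and 1 larger loss between lines, and 2 lower STM2457 effects between durations and 2 between lines. The cause of these shifts was not tested.

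Without 1 library, the counts between durations ranged from 0 to 2 for smaller losses, 0 to 1 for larger losses and 0 to 1 for lower DMSO levels. Rebounds ranged from 0 to 1 in each treatment and late losses in DMSO from 5 to 8. With STM2457, 0 to 2 members were lower at 3 h and 1 to 4 at 6 h. Decay differences over 0 to 6 h ranged from 0 to 1 for larger losses, and those over 3 to 6 h from 0 to 1 for smaller ones. KLF10 in Kelly at 6 days and 6 h ranged from -2.13 to 1.02, and reversed without STM2457 replicate 1, where the remaining library had 0.733 CPM. Where 1 library of a pair is left out, the other is assumed to vary like the other groups. Leaving out libraries was not run for differences between lines.

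Deviations of libraries with the same replicate number correlated between groups at -0.045 to 0.052 in Kelly and -0.032 to 0.114 in NGP, so the numbers did not pair the samples. With the replicate number as a block, 1 rebound in STM2457 was called (JUN in Kelly at 3 days), 6 late losses in DMSO and 4 decay differences over 0 to 6 h. Depth limits EGR1 and ZFP36L1, whose loss was not called with TMM scaling and all libraries in edgeR.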
